A study of Mus musculus with 7 samples.

Results

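The subject is the baseline transcriptome of wild-type mouse granulosa cells, described from the 4 libraries labelled WT out of 7 in the series. The members were chosen by their labels: genotype WT and no treatment. All 4 were primary ovarian granulosa cells of the C57BL/6J strain, and the remaining 3 libraries, from Fhl2 knockout cells, are not compared here. The age of the mice, any hormone priming, time in culture, pooling of animals, and whether the libraries came from separate mice were not given in the sources used here, so the spread between libraries may in part be technical. The values are read counts per gene, expressed as CPM (the count scaled to the library total) or, where different genes are compared, as TPM (which also divides by the gene's merged exon length). With 1 group there is no contrast and no test of a difference, and errors are the SD over n = 4 libraries. The cells were measured in bulk, so fewer cells of a type and less RNA per cell cannot be told apart.

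Granulosa cells line the ovarian follicle and feed, signal to and finally release the oocyte. In growing follicles they divide under follicle-stimulating hormone (FSH) and convert androgens from the neighbouring theca cells to estradiol with aromatase. After the surge of luteinizing hormone (LH) they leave the cell cycle, build the matrix around the cumulus, and luteinize into progesterone-secreting cells. Each of these states has marker genes, so the level of such genes places a preparation on this path.

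The library totals ran from 39007770 to 50514556 counts, so that 3 counts, taken as the floor, corresponded to 0.0594 to 0.0769 CPM. Such floors cover counting error only. Of 55228 gene rows, 12348 (22.4%) reached 1 CPM in every library and 8783 (15.9%) reached 10 CPM. Among 21709 protein-coding rows the shares were 52.2% and 38.9%. At the other end, 28682 rows (51.9%) had 0 counts in all 4 libraries. Transcription was spread over many genes: 754 genes made up 50% of the counts and 5228 made up 90%. Protein-coding genes held 96.9% of the counts and pseudogenes 2.10%.

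The labelled cell type was checked against 6 granulosa markers, of which 5 reached 10 CPM in every library. Inha, the alpha subunit of the hormone inhibin, stood at 1061, 1094, 958 and 1007 CPM in libraries 1 to 4. Cyp11a1, the mitochondrial enzyme that cuts cholesterol to pregnenolone, stood at 302, 305, 266 and 279 CPM. Both genes were highest in library 2 and lowest in library 3, and Inha held rank 95 of all rows by CPM. Nr5a2, the orphan nuclear receptor that drives many granulosa genes, stood at 162, 151, 179 and 165 CPM. Foxl2, the forkhead factor that keeps the ovarian fate, stood at 78.7, 69.9, 65.1 and 63.4 CPM, and Amhr2, the receptor of anti-Müllerian hormone, at 28.6, 31.4, 26.1 and 30.4 CPM. No library was lowest for all 5 genes. Fshr, the FSH receptor, was the only marker under 10 CPM, at 4.77, 5.31, 5.63 and 5.62 CPM. Per length, Inha stood at 2238 ± 131 TPM, Cyp11a1 at 192 ± 12.5 TPM and Fshr at 7.24 ± 0.530 TPM, so that Fshr was detected in every library but at the low end of the markers.

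A wider list of granulosa identity genes, with the 6 markers included, had 23 of 33 members at 10 CPM or more in every library, against the 15.9% of all rows and 38.9% of protein-coding rows given above. Among transcription factors of the ovary, Gata4 stood at 278 ± 18.4 CPM, Emx2 at 174 ± 10.8 CPM, Nr5a1 at 93.5 ± 7.34 CPM, Gata6 at 39.9 ± 2.83 CPM and Wt1 at 27.8 ± 1.52 CPM. Esr2, the estrogen receptor of granulosa cells, stood at 97.7 ± 3.34 CPM, and Kitl, the ligand by which granulosa cells feed oocyte growth, at 84.9 ± 7.88 CPM. Gja1, the connexin of granulosa gap junctions, stood at 1649.7 ± 89.6 CPM, and Serpine2, a secreted protease inhibitor, reached 1186 ± 64.2 CPM. Fhl2, the LIM-only cofactor whose knockout the series studies, stood at 100.2, 113, 104 and 108 CPM in these wild-type libraries. The members below 10 CPM in at least 1 library were Fshr, Amh, Cyp19a1, Ihh, Dhh, Nap1l5, Lhx9, Nr0b1, Irx3 and Irx5. Of these, Cyp19a1 had 0 counts and Nr0b1, a repressor of steroidogenic genes, had 7 counts over all 4 libraries.

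The most abundant transcript by counts was Thbs1, which encodes the secreted matrix glycoprotein thrombospondin. The gene lies at chr2:118111876-118127133 on the plus strand in mm10, and its merged exons span 6073 bases. Its level was 13975, 13813, 13652 and 14372 CPM, with library 4 highest and library 3 lowest. Genes of the contractile cytoskeleton and its attachments were among the 30 genes with the most counts: Cald1, a caldesmon that binds actin and tropomyosin, stood at 6097 ± 824 CPM, Tpm1, a tropomyosin, at 3955 ± 191 CPM, Dag1, which links the cytoskeleton to laminin, at 3804 ± 249 CPM, and Col4a1, a basement membrane collagen, at 2738 ± 152 CPM. Cald1 stood at 5849, 5344, 7272 and 5924 CPM, where library 3 stood above the other 3. Chaperones formed another group. Calr, the calcium-binding chaperone of the endoplasmic reticulum, stood at 6869 ± 444 CPM, the cytosolic chaperones Hsp90ab1 and Hspa8 at 6664 ± 186 CPM and 5653 ± 279 CPM, and the secreted chaperone Clu at 4662 ± 132 CPM.

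Aldh1a1, a retinaldehyde dehydrogenase that makes retinoic acid, ranked 5 of all rows at 5984, 6464, 6492 and 6385 CPM. Library 1 was lowest and the other 3 lay close together. Slc6a6, the taurine transporter, stood at 3689 ± 246 CPM, and Inhba, the subunit that forms activin A or inhibin A, ranked 15 at 2957, 2735, 3469.8 and 3064 CPM. The immediate early gene Egr1, a zinc-finger factor, was also among the 30 genes with the most counts, at 2342 ± 286 CPM. The 10 most abundant genes together took 6.95 to 7.32% of the counts of a library, and mitochondrially encoded genes took 2.76 to 3.20%. Even Thbs1 was thus a small share of the whole.

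**Figure D1:**
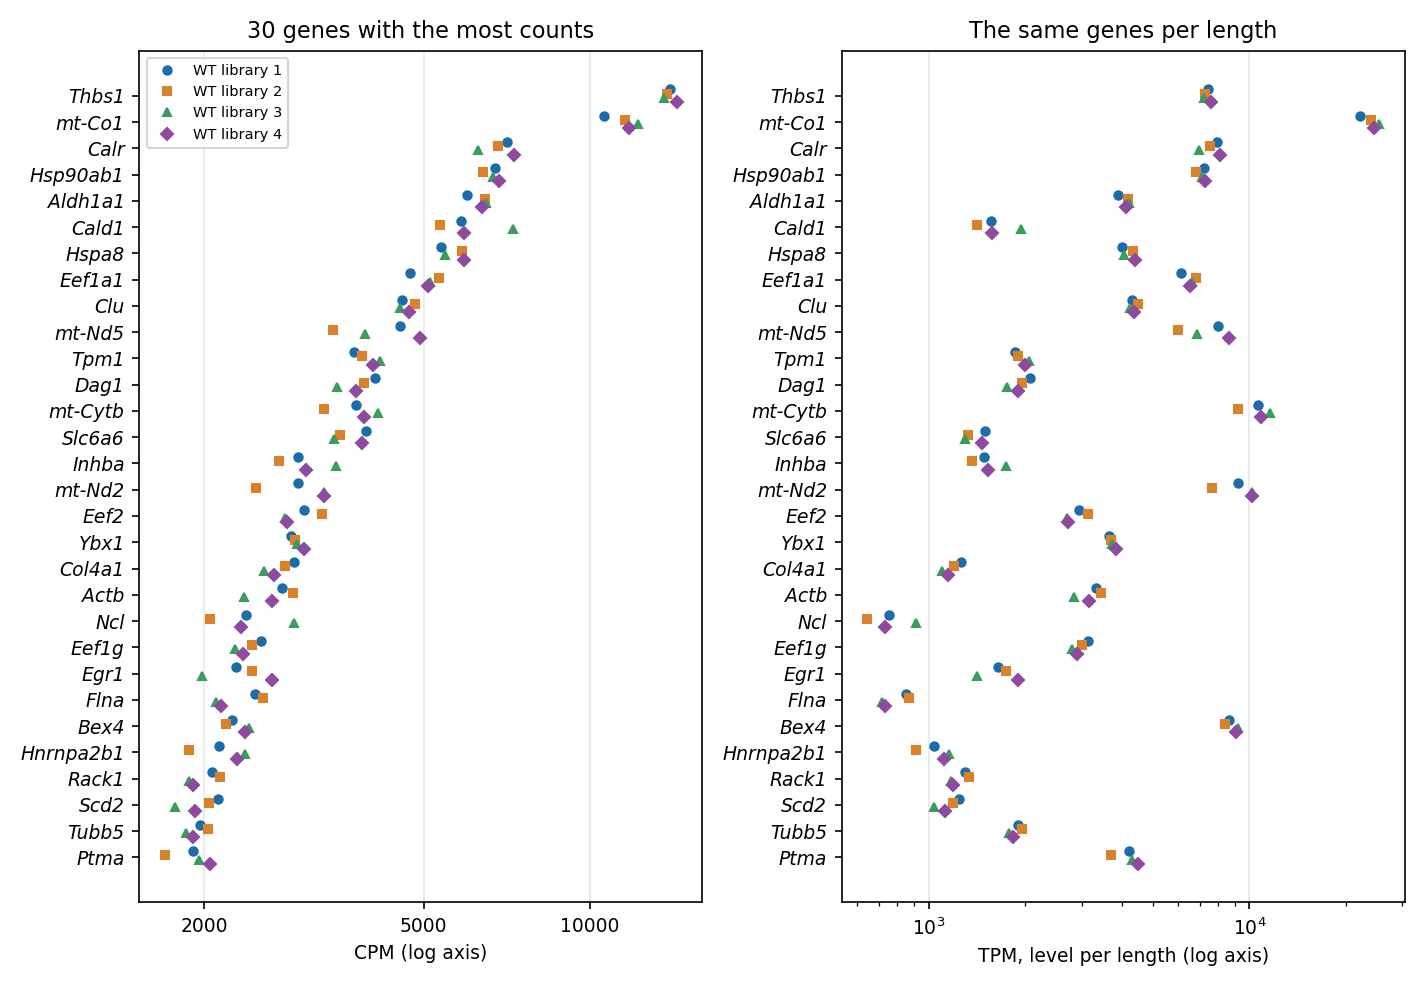
The 30 genes with the highest mean CPM in wild-type granulosa cells, with predicted genes left out. Values are CPM (left, log axis) and TPM (right, log axis), with 1 symbol per library. Thbs1 leads by counts at 13652 to 14372 CPM, whereas mt-Co1 leads per length, and the 4 libraries lie close together for most genes.

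Per length the order changed. With predicted genes left out, the mitochondrial transcripts mt-Co1, mt-Cytb and mt-Nd2 came first with 23961 ± 1346 TPM, 10571 ± 989 TPM and 9298 ± 1201 TPM. The short transcript of Bex4, a small X-linked protein, followed at 8663, 8365, 9243 and 9076 TPM, a range that overlapped that of mt-Nd2. Calr (7645 ± 499 TPM), mt-Nd5 (7383 ± 1169 TPM), Thbs1 (7364 ± 165 TPM) and Hsp90ab1 (7123 ± 213 TPM) had ranges that touched or overlapped, so their order was not settled by these libraries. S100a11, a small calcium-binding protein, ranked 14 per length at 5079.6 ± 133 TPM although its counts placed it only at rank 135.

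Genes of protein synthesis showed a wide range. Eef1a1, which delivers aminoacyl-tRNA to the ribosome, stood at 5071 ± 249 CPM. The 80 protein-coding ribosomal protein genes, a set counted after its values were seen, took 3.00 to 3.22% of the counts. Of this set 75 reached 10 CPM in every library, where 38.9% of all protein-coding rows did. Rpsa led the set at 1832 ± 58.3 CPM, whereas Rps10 and Rpl24 had only 2.22 ± 0.50 CPM and 4.39 ± 0.384 CPM. Gapdh, the glycolytic enzyme, likewise had only 11.9, 12.4, 13.9 and 11.9 CPM, which placed it at rank 8521; these 4 genes were chosen after their values were seen. Such genes have many near-identical pseudogene copies, and the rule by which reads shared between copies were counted was not given in the sources used here. Its part in these low values, and in the share of counts of the ribosomal set, was not tested. The low values should not be read as expression levels.

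Hormones and their receptors came first in the placement along follicle growth. Inha, Inhba and Inhbb, whose products pair to inhibins and activins, stood at 2238 ± 131 TPM, 1533 ± 155 TPM and 289.5 ± 28.1 TPM. By counts Inhba was ahead of Inha (3056 ± 308 CPM against 1029.9 ± 60.2 CPM), but its merged exons are longer (6390 against 1475 bases), so that per length Inha led in each library. Fst, the secreted binder that neutralises activin, stood at 225 ± 18.4 CPM. Amh, the hormone of preantral and small antral follicles, stood at only 1.44, 2.38, 1.65 and 1.92 CPM, highest in library 2, while its receptor Amhr2 was above 10 CPM throughout. Igf1, a growth factor of healthy follicles, reached 421 ± 34.1 CPM.

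The gonadotropin receptors were scarce. Fshr had 186, 268, 269 and 249 counts in libraries 1 to 4, far above the floor yet under 10 CPM in each. Lhcgr, the LH receptor, which granulosa cells gain late in follicle growth, had 0, 2, 0 and 0 counts and so lay at or under the floor in every library. Downstream of these receptors, the regulatory subunit Prkar2b of protein kinase A, which rises with FSH action in rodent granulosa cells, stood at 76.0 ± 4.55 CPM. Npr2, the receptor of C-type natriuretic peptide in the somatic follicle, stood at 68.2 ± 3.62 CPM, and its ligand Nppc at 4.85 ± 0.322 CPM.

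Steroid synthesis was present in part. Of 19 listed genes, 14 reached 10 CPM in every library, where 15.9% of all rows and 38.9% of protein-coding rows did. The other 5 stayed below 1 CPM in at least 1 library. Cyp11a1 and its electron donors Fdx1 (308 ± 10.5 CPM) and Fdxr (122 ± 4.85 CPM) were present. Hsd3b1, which turns pregnenolone to progesterone, stood at 496, 510.5, 493 and 492 CPM, a narrow range with library 2 highest. Scarb1, the receptor that takes up cholesterol from high-density lipoprotein, stood at 246 ± 16.6 CPM. Star, the carrier that brings cholesterol into mitochondria, stood at 11.4, 10.2, 10.7 and 11.9 CPM. Per length these were 860.1 ± 13.6 TPM for Hsd3b1 and 8.61 ± 0.586 TPM for Star, so Star lay far below both Hsd3b1 and Cyp11a1 in every library. Hsd17b1, which reduces estrone to estradiol, stood at 192 ± 16.5 CPM, but aromatase was not detected. Cyp19a1, at chr9:54165937-54268110 on the minus strand in mm10, had 0 counts in every library, which allows at most 0.0594 to 0.0769 CPM, and its annotated exons overlap no other gene. Cyp17a1, the androgen-making enzyme of theca cells, had 1 count in all 4 libraries together.

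**Figure D2:**
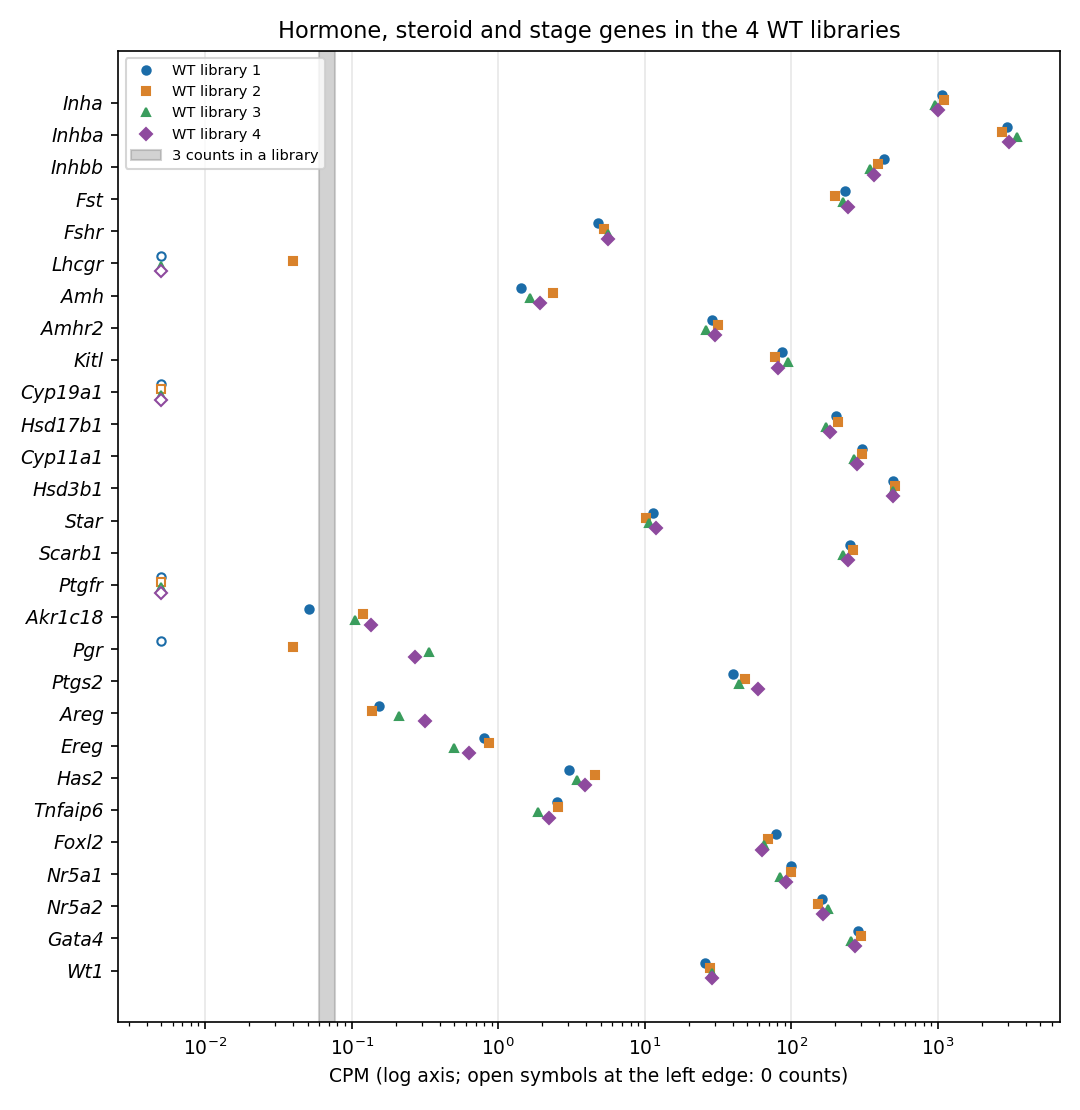
CPM (log axis) of hormone, receptor, steroid synthesis, ovulation, luteal and transcription factor genes in each wild-type library, with open symbols at the left edge for 0 counts and a grey band at 3 counts. Cyp19a1 and Ptgfr are at 0 counts in all 4 libraries and Lhcgr in 3, whereas Hsd3b1, Cyp11a1 and Inhba are high.

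Lists of genes of different follicle stages were each present in part. Of 14 preantral and small follicle genes, 9 reached 10 CPM in every library, and of 17 antral and preovulatory genes 10 did. Preantral genes such as Cdh2 (338 ± 19.1 CPM) and Igfbp5 (374 ± 10.9 CPM) were present, and so were the antral genes Inhbb (384 ± 36.1 CPM) and Vnn1 (105 ± 6.13 CPM), a pantetheinase. Of 9 cumulus genes 4 reached 10 CPM, among them Npr2, Gja1 and Ube2c, which are not restricted to cumulus cells. Slc38a3, an amino acid transporter of cumulus cells, stood at 7.51 ± 1.15 CPM. The lists share members, so their counts are not independent. Over all stage lists 42 of 73 genes reached 10 CPM in every library, where 15.9% of all rows and 38.9% of protein-coding rows did.

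Genes of the ovulatory response ranged from the floor to well above 10 CPM. The epidermal growth factor-like ligands that relay the LH surge, Areg, Ereg and Btc, stood at 0.204 ± 0.0805 CPM, 0.700 ± 0.165 CPM and 0.806 ± 0.395 CPM. Pgr, the progesterone receptor that the surge induces, had 0, 2, 16 and 12 counts, with libraries 1 and 2 at or under the floor. The cumulus matrix genes Has2, Tnfaip6 and Ptx3 stood at 3.74 ± 0.658 CPM, 2.29 ± 0.327 CPM and 1.35 ± 0.343 CPM. They were detected in every library, unlike Pgr. Ptgs2, the inducible cyclooxygenase of ovulation, stood at 40.3, 48.3, 43.6 and 59.0 CPM, with library 4 highest and library 1 lowest. Adamts1, a matrix protease, stood at 160.0 ± 19.5 CPM. In all, 10 of 23 listed genes reached 10 CPM in every library, near the 38.9% of protein-coding rows, among them the broadly used regulators Hif1a, Nrip1, Runx1, Runx2 and Cebpb.

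Luteal genes split into a present and an absent group. Besides Hsd3b1, Scarb1 and Cyp11a1, the present group held Parm1 at 228 ± 5.35 CPM, Pcsk5, a proprotein convertase, at 366 ± 10.6 CPM, and Sfrp4, a secreted Wnt antagonist, at 99.0 ± 4.86 CPM. Genes of luteal regression were absent or nearly so. Ptgfr, the prostaglandin F receptor, had 0 counts in every library, and Akr1c18, the progesterone-degrading enzyme, had 2, 6, 5 and 6 counts. Prlr, the prolactin receptor, stood at 7.61, 7.88, 10.1 and 8.02 CPM, above 10 CPM in library 3 alone. Of 18 luteal genes, 12 reached 10 CPM in every library, where 15.9% of all rows and 38.9% of protein-coding rows did. The 12 included Cyp11a1, Inhba and Nr4a1, which are also on other lists here. Lhcgr, Ptgfr and Hsd11b1 lay at or under 3 counts in each library.

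Cell cycle genes were expressed throughout. All 20 of 20 listed cell cycle genes reached 10 CPM in every library, where 15.9% of all rows and 38.9% of protein-coding rows did. Top2a, the topoisomerase of mitosis, stood at 211 ± 22.9 CPM, Mki67, the proliferation antigen, at 167 ± 18.2 CPM, Cdk1, the mitotic kinase, at 117 ± 5.12 CPM, and the replication helicase subunit Mcm3 at 134 ± 3.20 CPM. The summed level of the list was nearly the same in each library, at 1925, 1970.0, 1957 and 1933 CPM. Ccnd2, the D-type cyclin that FSH induces in granulosa cells, stood at 245, 231, 255 and 239.5 CPM.

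Matrix and adhesion genes, many of them targets of the coactivator YAP, were abundant. Of 21 listed genes, 19 reached 10 CPM in every library, where 15.9% of all rows and 38.9% of protein-coding rows did. The summed level of the list was 37636, 37061, 38308 and 38714 CPM. Ccn1 and Ccn2, matricellular proteins and classical YAP targets, stood at 1796 ± 234 CPM and 625 ± 105 CPM. The collagen and elastin crosslinker Lox stood at 659.8 ± 43.6 CPM, the receptor tyrosine kinase Axl at 1408 ± 66.3 CPM, the matricellular protein Sparc at 1678 ± 59.7 CPM and the intermediate filament Vim at 1398 ± 33.4 CPM. The factors themselves were present too: Yap1 stood at 71.8 ± 3.48 CPM, its relative Wwtr1 (TAZ) at 156 ± 8.89 CPM and their DNA-binding partner Tead1 at 267 ± 13.5 CPM. Tagln, a smooth muscle actin-binding protein, and Spp1, osteopontin, were the members under 10 CPM, at 6.21 ± 0.468 CPM and 4.01 ± 0.442 CPM.

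Markers of other cells that an ovarian preparation could hold were mostly low. Of 98 such genes 15 reached 10 CPM in every library, close to the share among all rows and below that among protein-coding rows. No endothelial, erythroid or oocyte marker was among them. The 12 endothelial genes summed to 6.49, 5.90, 5.17 and 5.51 CPM, with Tie1 and Cldn5 at 0 counts. The 7 erythroid genes summed to 0.103 to 0.335 CPM. Among 15 immune genes only Lyz2, the lysozyme of macrophages, passed at 12.5 ± 1.03 CPM, whereas Cd3e of T cells and S100a8 of neutrophils had 0 counts. The macrophage genes Cd68 (5.43 ± 0.668 CPM), C1qa (2.06 ± 0.260 CPM) and Csf1r (1.54 ± 0.314 CPM) lay between these extremes.

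Oocyte transcripts were detected at low levels that differed between libraries. The 18 oocyte genes summed to 17.3, 9.11, 12.7 and 16.5 CPM. Gdf9, the growth factor that oocytes send to granulosa cells, stood at 3.54, 1.39, 2.38 and 3.14 CPM, and Zp2 and Zp3 of the egg coat at 1.82, 0.317, 1.17 and 1.90 CPM and 1.18, 0.317, 0.711 and 0.813 CPM. For these 3 genes library 2 was lowest. Kit, the receptor of Kitl, had the most counts of the list, at 4.72, 4.73, 4.60 and 4.31 CPM, and varied little.

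Theca, stroma and muscle markers were mixed. Of 11 theca genes 5 reached 10 CPM in every library, where 15.9% of all rows and 38.9% of protein-coding rows did. The theca-defining genes Cyp17a1 and Insl3 had 1 and 2 counts over all libraries. Yet Ptch1, the hedgehog receptor, stood at 46.4 ± 1.88 CPM, and Aldh1a1, which was on the theca list, was among the top genes. Of 13 stroma and fibroblast genes 4 reached 10 CPM in every library. The proteoglycans Dcn and Lum stood at 0.510 ± 0.0655 CPM and 0.305 ± 0.226 CPM, but Ogn, of the same family, stood at 67.2 ± 10.5 CPM. The fibrillar collagen genes Col3a1, Col1a2 and Col1a1 stood at 218 ± 9.88 CPM, 90.7 ± 11.8 CPM and 71.9 ± 8.25 CPM. Of 11 smooth muscle and pericyte genes 3 reached 10 CPM in every library and 10 reached 1 CPM, with a summed level of 1075, 1147, 1016 and 1053 CPM. Myh11, the smooth muscle myosin heavy chain, stood at 24.5 ± 1.47 CPM and Mcam, an adhesion molecule of pericytes, at 150.1 ± 10.3 CPM. The pericyte marker Rgs5 had 0 counts, and the smooth muscle genes Des and Cnn1 stood at 2.12 ± 0.714 CPM and 4.65 ± 0.777 CPM. Acta2, smooth muscle actin, stood at 874, 927, 822 and 863 CPM and was among the abundant actins of these cells. Keratins Krt8 and Krt18 stood at 77.5 ± 5.00 CPM and 33.3 ± 3.36 CPM, whereas Krt19, Upk3b and Msln of the surface epithelium stood at 1.04 ± 0.248 CPM, 0.346 ± 0.347 CPM and 0.362 ± 0.225 CPM. The part of other cells in these levels was not tested.

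**Figure D3:**
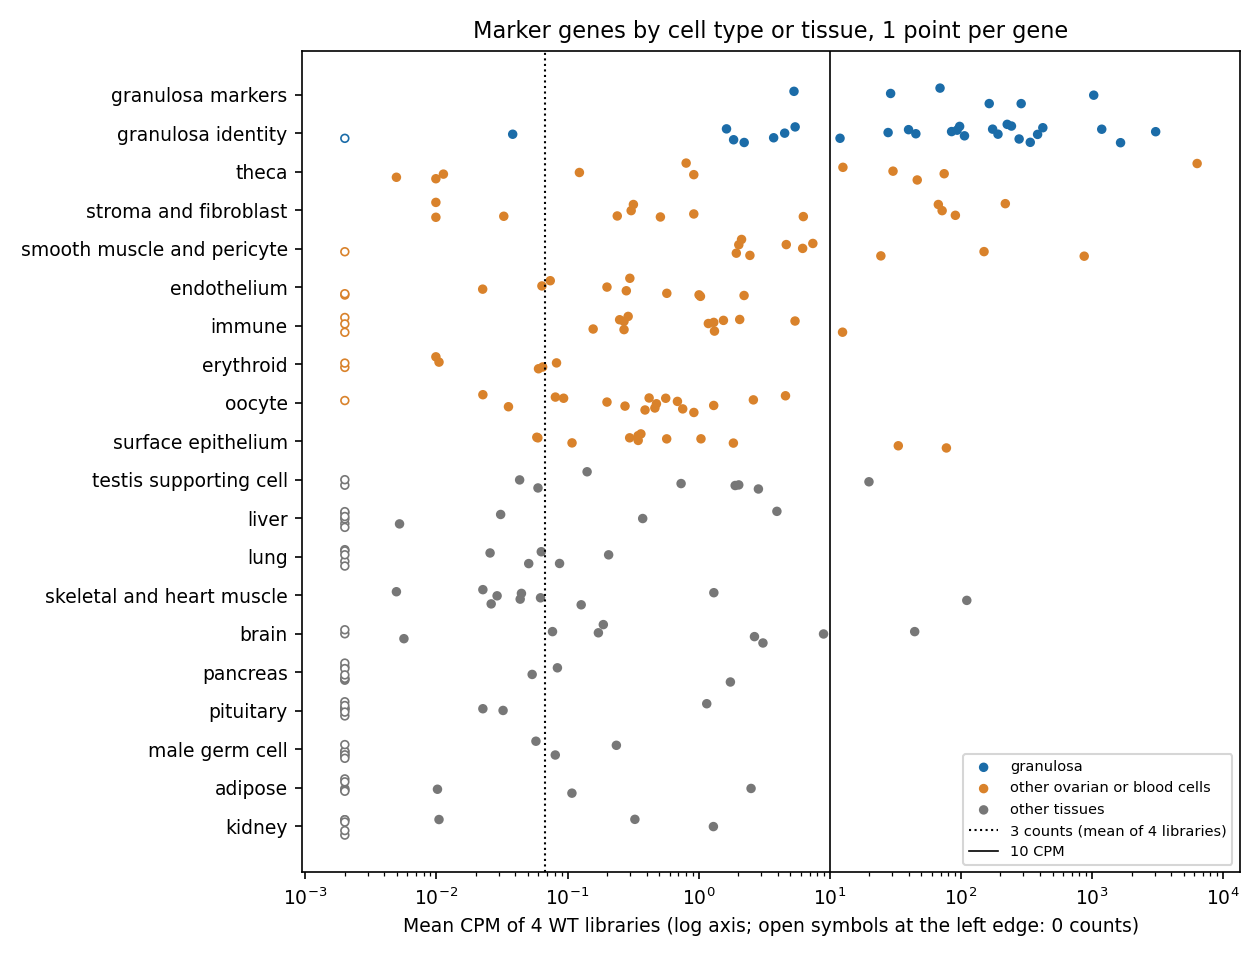
Mean CPM over the 4 wild-type libraries (log axis) of marker genes of granulosa cells, of other ovarian or blood cells and of other tissues, with 1 point per gene and open symbols at the left edge for 0 counts. Most granulosa genes lie to the right of the 10 CPM line, whereas 15 of 98 genes of other ovarian or blood cells and 3 of 96 genes of other tissues do so in every library.

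Genes of other tissues were absent in part. Of 96 such genes 52 had at most 3 counts in every library, where 62.4% of all rows and 30.7% of protein-coding rows did, and 46 had 0 counts throughout. The hormones Ins1, Ins2, Gcg, Gh, Prl, Fshb and Lhb were among the latter, as were Alb of liver, Nkx2-1 of lung and Adipoq of fat. Dmrt1, the factor that keeps testis fate, had 0 counts, and Sox9, its counterpart in Sertoli cell formation, stood at 2.85 ± 0.607 CPM. Of the list, 3 genes reached 10 CPM in every library. The cardiac troponin Tnni3 stood at 113, 116, 107 and 107 CPM, the myelin gene Mbp at 42.1, 48.3, 42.8 and 44.3 CPM, and Gdnf, a neurotrophic factor that Sertoli cells secrete, at 19.7, 19.8, 17.1 and 23.0 CPM. Each was present in all 4 libraries at a like level. The sex chromosomes read as female in every library, with Xist, the RNA of the inactive X, at 289, 317, 341 and 329.9 CPM and 0 counts for the Y genes Ddx3y, Eif2s3y, Kdm5d and Uty. All rows of the Y chromosome together had 748 counts over the 4 libraries. The median level per length of detected protein-coding genes was 19.2 TPM on the X (403 genes) and 19.6 TPM on the autosomes (10925 genes).

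Choice within gene families was assessed as each member's share of the family's summed TPM. The counting of reads shared with near-identical copies is uncertain, and its part in these shares was not tested. In 53 of 65 families 1 gene held over 50% in every library, and in 22 it held over 90%. Among steroid and gonadal families, Hsd3b1 held 99.97% of the 3-beta-hydroxysteroid dehydrogenases, although these genes are close copies whose shared reads are uncertain. Esr2 held 89.96%, 90.5%, 92.2% and 91.7% of the estrogen receptors and related receptors, while Esr1 held 1.30% on average. Gata4 held 88.7 to 91.5% against 7.02 to 9.03% for Gata6. Nr5a2 led its pair with Nr5a1 at 54.0%, 52.4%, 60.6% and 56.3%. The lead was small but held in each library.

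Structural families ranged from near-exclusive to shared use. Gja1 held 98.0 to 98.3% of 17 connexins, Lama1 96.0 to 96.7% of the laminin alpha chains, Cdh2 (N-cadherin) 89.7 to 92.5% of the cadherins and Notch2 91.0 to 93.9% of the Notch receptors. The actins were shared: Actb held 48.7%, 47.8%, 46.3% and 47.8%, Actg1 32.4 to 33.9% and Acta2 nearly all of the rest. Ccnd2 held 86.7%, 86.3%, 86.9% and 86.9% of the D-type cyclins, with Ccnd3 next at 12.4%. Fhl2 held 65.9%, 67.3%, 66.8% and 67.4% of the LIM-only FHL family, followed by Fhl1 at 23.7% and Fhl3 at 9.33%.

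Several metabolic families were used almost exclusively through 1 gene. Pkm, Eno1 and Aldoa led pyruvate kinase, enolase and aldolase at 99.9994%, 96.6% and 99.1% on average. Ldha held 69.1 to 70.5% against Ldhb, and Hk2 53.5 to 54.6% against Hk1, an order that turned with the longest transcript as length and without division by length. Scd2 held 96.7 to 96.8% of the stearoyl-CoA desaturases, with Scd1, the form best known from liver and fat, at 2.92%. Slc2a1 led the glucose transporters at 78.9 to 80.8%, and Ptgs2 held 99.0 to 99.5% of cyclooxygenase against Ptgs1. Soat1, which esterifies cholesterol for storage, held 98.9 to 99.3% against Soat2, and Plin2, the coat of lipid droplets, held 69.0 to 70.5% of the perilipins. The 3 leading acyl-CoA synthetases Acsl4, Acsl3 and Acsl5 held 32.9%, 32.1% and 30.8% on average. The ranges of Acsl4 and Acsl3 overlapped, and Acsl4 was first in 2 of 4 libraries. Gstm1 held 57.0 to 61.0% of the mu class glutathione transferases, and Sod1 held 94.3 to 94.8% of the superoxide dismutases.

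Among type II receptors of the TGF-beta family Amhr2 held 42.7%, 45.9%, 39.9% and 45.8% and Bmpr2 37.7 to 42.2%; their ranges overlapped, the order turned with either other length setting, and Amhr2 led in 3 of 4 libraries. Smad4 and Smad6 differed by less than the spread as well, with Smad4 first in 3 of 4. Foxo1 held 67.4 to 69.6% of the FOXO factors. Tead2 held 57.3 to 61.1% and Tead1 32.1 to 37.2% of the TEAD factors, an order that turned when counts were not divided by length. Igfbp2 held 55.9 to 58.6% of the IGF binding proteins, likewise only per length. Bmpr1a led the type I receptors at 32.0 to 35.1%, followed by Tgfbr1 at 20.8 to 22.6%, and Tgfb3 held 68.4 to 71.6% of the TGF-beta ligands. Of growth factor receptors, Erbb2 held 58.2 to 63.1% of the EGF receptor family, where Egfr, the receptor of Areg and Ereg, held 23.2%, and Fgfr2 held 61.7 to 64.8% of the FGF receptors. Adcy6 and Adcy9 held 53.7% and 38.5% of the adenylyl cyclases, which make cyclic AMP after FSH binding. Prkar1a held 73.1 to 75.0% of the regulatory subunits of protein kinase A and Prkaca 83.3 to 86.8% of its catalytic pair. Of 38 nuclear receptors in these lists, 19 reached 10 CPM in every library, 26 reached 1 CPM, and 2 lay at the floor. Of all protein-coding rows, 38.9% reached 10 CPM, 52.2% reached 1 CPM and 30.7% lay at the floor.

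**Figure D4:**
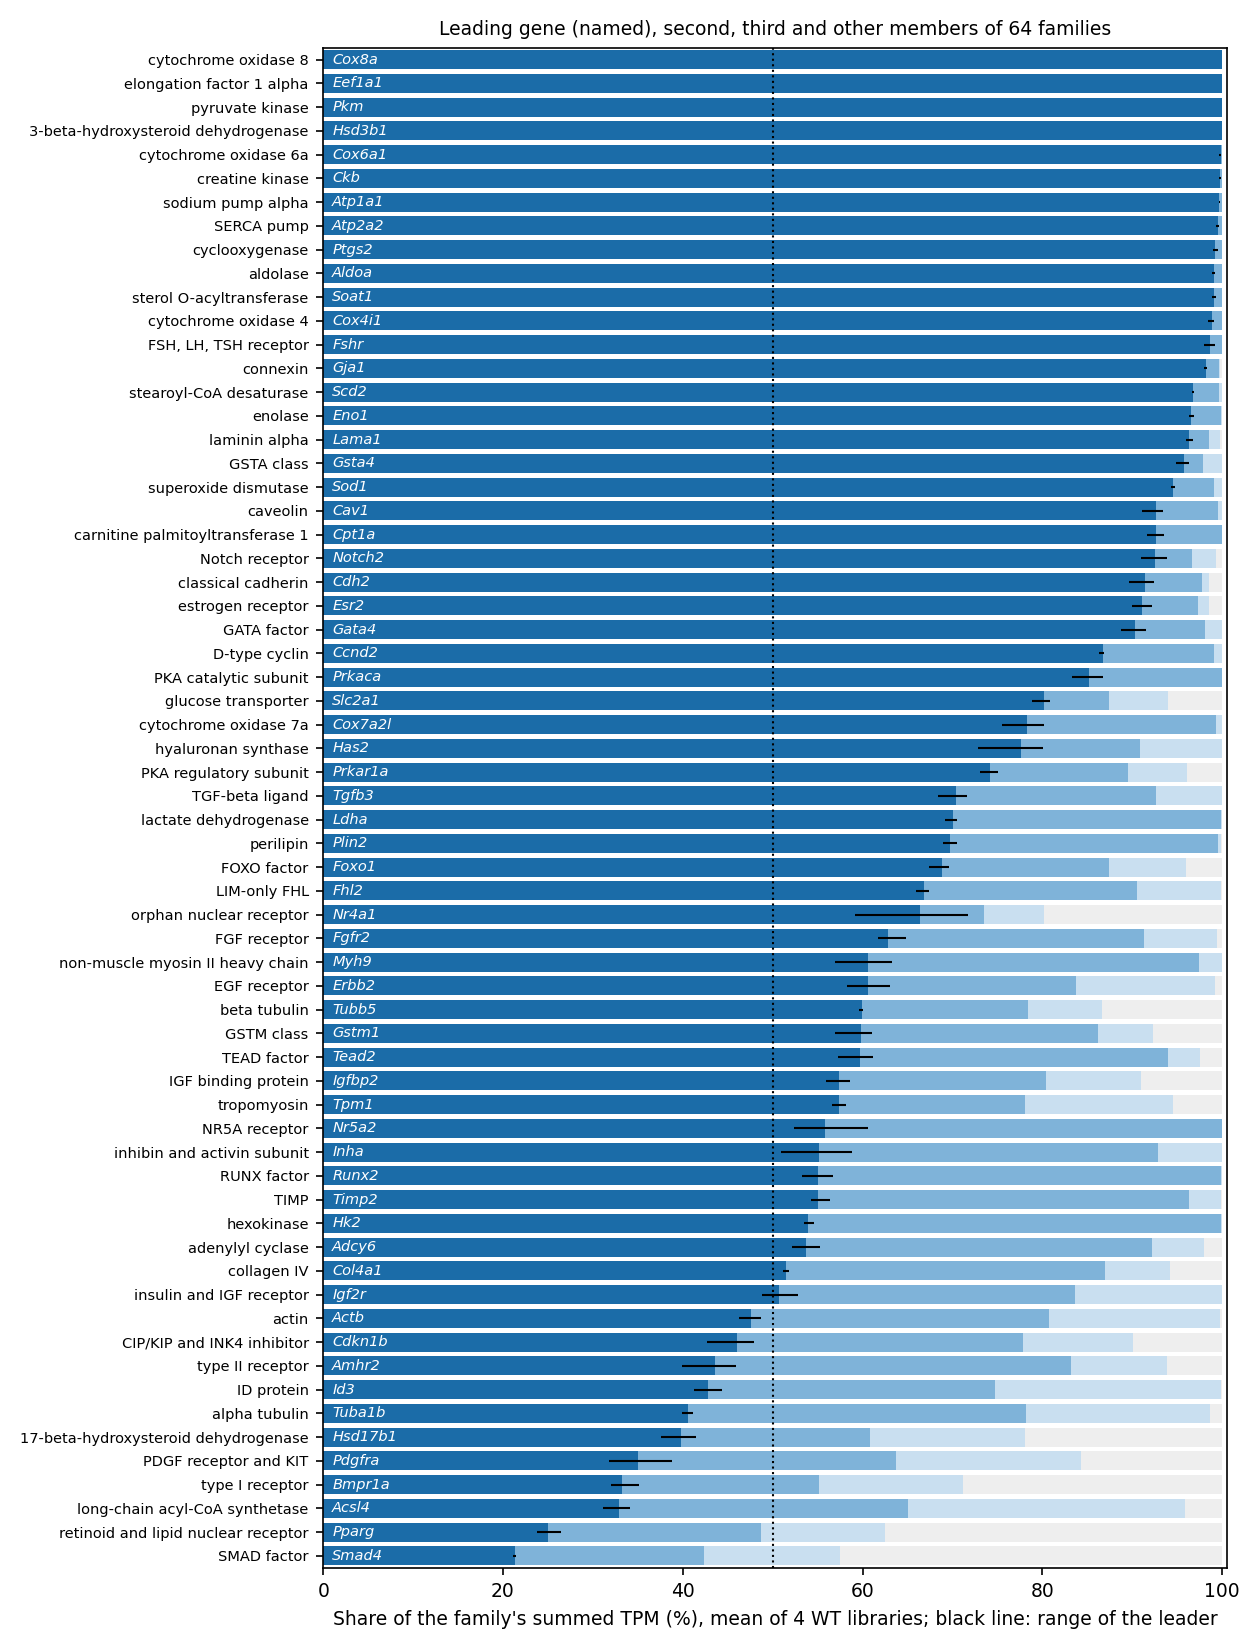
Share of the summed TPM of gene families (per cent, mean of 4 wild-type libraries) held by the leading gene (dark, named), the next 2 genes (lighter) and the remaining members (grey), with black lines for the range of the leader over libraries. The leader's share is over 50% in every library in most of the families shown, from near 100% for Hsd3b1 and Pkm down to 50.97% in 1 library for Inha.

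The 4 libraries were much alike, and none was a duplicate of another. Pearson correlations across genes between pairs of libraries, on log2 of TMM-scaled CPM plus 0.5, were 0.994 to 0.996, and a chi-square statistic comparing the counts of a pair came to at least 9.72 times its degrees of freedom, so no pair agreed within sampling noise. Over the 9043 genes with a mean of at least 10 CPM the median coefficient of variation (CV) was 6.31%, with 2964 genes under 5% and 62 over 20%. The biological coefficient of variation from edgeR was 8.24% in common. At 1 to 10 CPM the median CV was 13.6% where counting error alone gave 7.87%, and at 1000 CPM or more it was 5.20% against 0.383%. Counting error was thus a small share of the spread of abundant genes.

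The steadiest genes above 100 CPM included Tmed10, a cargo receptor of the secretory pathway, at 244, 244, 243 and 243 CPM, and Arhgap35, a GTPase-activating protein, at 296, 295, 294 and 293 CPM. The highest library of each was within 1% of the lowest. With predicted genes left out, the largest CV above 10 CPM was that of Bc1, a small neuronal RNA made by RNA polymerase III. Bc1 stood at 88.0, 67.1, 15.8 and 8.38 CPM, where libraries 1 and 2 stood well above libraries 3 and 4. Rps12 (58.8, 179, 104 and 66.7 CPM), Sumo2 (24.3, 61.7, 108 and 83.6 CPM) and Ppia (380.1, 654, 451 and 543 CPM) also varied, each with its own order of libraries. Malat1, a nuclear long noncoding RNA, stood at 271, 389, 505 and 360.5 CPM, with library 3 highest. Rps12, Sumo2 and Ppia have near-identical pseudogene copies, and the part of shared reads in their spread was not tested.

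Immediate early genes, which cells switch on within minutes of a stimulus, were abundant, and many had library 4 highest and library 3 lowest. Of 25 listed genes 18 reached 10 CPM in every library, where 15.9% of all rows and 38.9% of protein-coding rows did. Fos, a partner in the AP-1 dimer, stood at 806, 917, 769 and 960.4 CPM, and Egr1 at 2285, 2442, 1981 and 2660.3 CPM. Fosb, a relative of Fos, stood at 279.7, 347, 214 and 449 CPM, Nr4a1, an inducible orphan nuclear receptor, at 246, 275, 169 and 332 CPM, and Egr3 at 9.74, 13.4, 8.74 and 22.3 CPM. For each of these 5 genes library 4 was highest and library 3 lowest. The same order held for 13 of the 20 listed genes with a mean of at least 10 CPM, against 5.33% of all 9043 such genes, and all 20 were higher in library 4 than in library 3. The median ratio of library 4 to library 3 was 1.24 over the 20 genes and 1.00 over all 9043. Their summed level was 6655, 7167, 5963 and 7839 CPM. The heat shock genes Hspa1a and Hspa1b, stress markers on the same list, stood at 0.632 ± 0.179 CPM and 4.89 ± 1.01 CPM. These are near-identical copies whose shared reads are uncertain, so their values should not be read as expression levels. The genes of the list were chosen for this purpose with earlier results known, and what set the order of libraries was not tested.

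**Figure D5:**
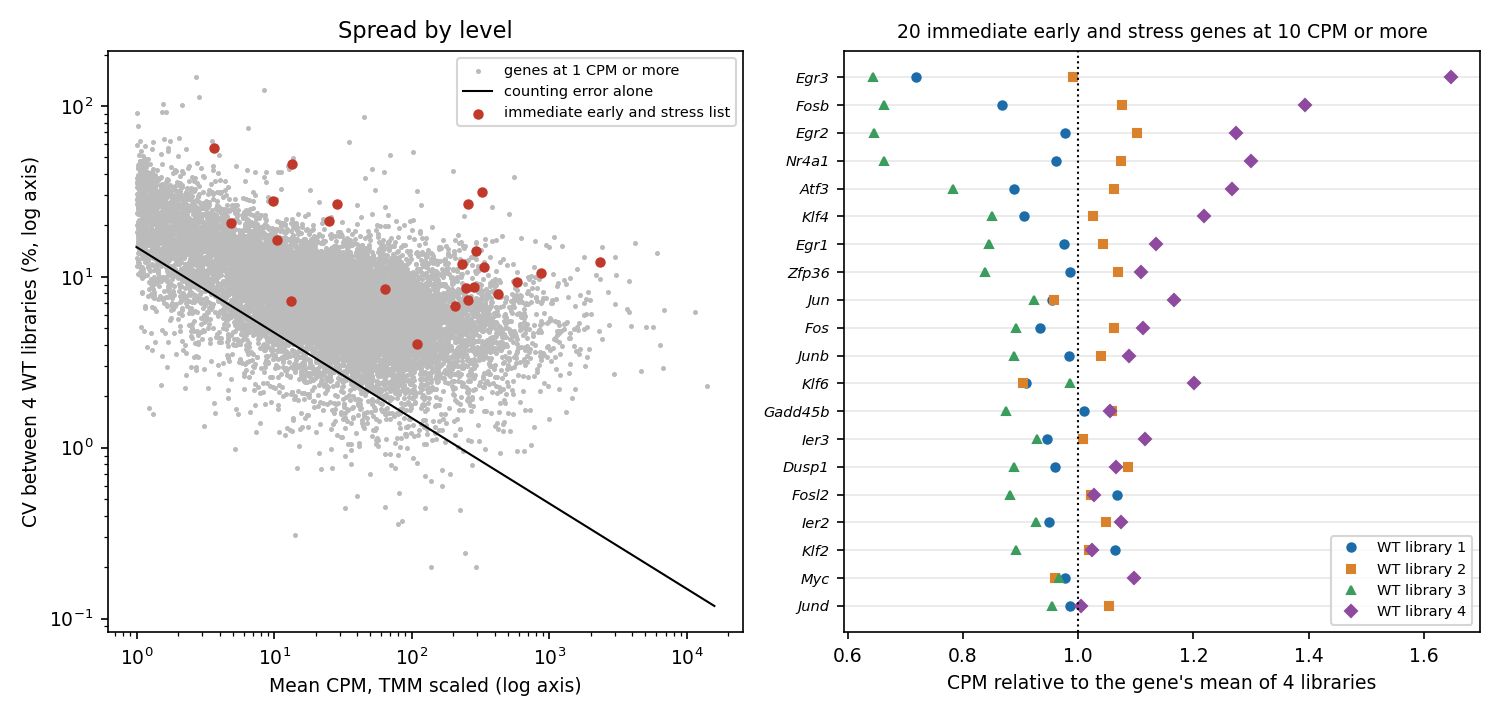
Left: coefficient of variation between the 4 wild-type libraries (per cent, log axis) against mean TMM-scaled CPM (log axis), with 1 grey point per gene, red points for the immediate early and stress list and a line for counting error alone. Right: CPM of the 20 listed genes at 10 CPM or more, relative to each gene's mean, with 1 symbol per library; library 4 lies above library 3 for all 20 and is highest with library 3 lowest for 13.

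Promoters of 4 genes of the list are shown as examples of the motifs searched, all 4 higher in library 4 than in library 3. RefSeq sequences of GRCm38.p6, from 250 bases before to 50 after the start, were searched on both strands for TGACG, the core of the cyclic AMP response element to which CREB binds, and for the CArG box bound by serum response factor. The list had 24 promoters, from 20 of its 25 genes, taken by having a promoter sequence and not by level. TGACG was found in 54.2% of these 24, against 20.8% of all 32851 promoters. It was found in 31.5% of the promoters of rows at 1 CPM or more in every library. Among those of the 1000 rows with the most counts the share was 35.5%. TGACG contains the dinucleotide CG. The list's promoters had a median of 23.5 CG, against 7 over all promoters. The median was 21 for rows at 1 CPM or more and 24 for the 1000 rows. The CArG box was found in 20.8% of the list's promoters, against 1.63%, 1.26% and 1.85% of these sets. The full element TGACGTCA was found in 1 promoter of the list (4.17%), against 1.79%, 3.07% and 2.82%. Capitals mark each TGACG, written CGTCA where it lies on the other strand, in the promoters of Dusp1 (chr17:26508423-26508722, minus strand), Fosb (chr7:19309996-19310295, minus strand) and Nr4a1 (chr15:101266596-101266895, plus strand), and the CArG box in that of Zfp36 (chr7:28379179-28379478, minus strand).
Dusp1: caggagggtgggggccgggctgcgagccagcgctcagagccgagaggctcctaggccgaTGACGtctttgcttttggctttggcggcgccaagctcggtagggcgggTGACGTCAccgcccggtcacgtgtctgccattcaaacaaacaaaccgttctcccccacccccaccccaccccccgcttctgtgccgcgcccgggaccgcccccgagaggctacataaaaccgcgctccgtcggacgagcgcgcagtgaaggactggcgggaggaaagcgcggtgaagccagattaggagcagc
Fosb: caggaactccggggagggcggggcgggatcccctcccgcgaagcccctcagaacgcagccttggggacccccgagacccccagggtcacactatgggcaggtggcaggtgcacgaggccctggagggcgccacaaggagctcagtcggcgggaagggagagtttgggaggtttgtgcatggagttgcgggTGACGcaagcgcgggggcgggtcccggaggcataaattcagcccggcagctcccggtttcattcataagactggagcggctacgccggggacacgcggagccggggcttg
Nr4a1: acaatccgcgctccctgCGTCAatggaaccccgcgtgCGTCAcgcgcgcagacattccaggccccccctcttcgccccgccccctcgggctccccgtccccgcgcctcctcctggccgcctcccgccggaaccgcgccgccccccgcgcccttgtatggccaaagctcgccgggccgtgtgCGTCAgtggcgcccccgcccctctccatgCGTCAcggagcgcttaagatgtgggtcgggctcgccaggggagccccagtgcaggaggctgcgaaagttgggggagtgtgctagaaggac
Zfp36: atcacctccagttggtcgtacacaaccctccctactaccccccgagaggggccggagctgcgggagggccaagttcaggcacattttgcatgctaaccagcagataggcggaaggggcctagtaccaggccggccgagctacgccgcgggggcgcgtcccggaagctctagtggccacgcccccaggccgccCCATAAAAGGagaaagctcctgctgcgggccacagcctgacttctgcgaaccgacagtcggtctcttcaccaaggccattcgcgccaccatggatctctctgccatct
Dusp1, a phosphatase that ends MAP kinase signalling, stood at 557, 631, 516 and 619 CPM, and its promoter holds the full element, in which the capitals of both strands merge, besides a further TGACG. Zfp36, which marks messenger RNAs for decay, stood at 230.1, 249.7, 196 and 259 CPM. A match is a description of letters and not of binding. The TATA box TATAAA was found in 16.7% of the list's promoters and 13.6% of all, the NR5A site AAGGTCA in 0% and 4.72%, and the AP-1 site (TGACTCA or TGAGTCA) in 0% and 5.20%; TGACGTCA contains TGACG on both strands, and a CArG box can contain TATAAA.

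Promoters also differed between present and absent genes. The median number of CG dinucleotides per promoter was 21 for rows at 1 CPM or more in every library (11883 promoters), 3 for rows with 0 counts (7223 promoters) and 24 for the 1000 rows with the most counts. TATAAA went the other way, with 6.66% of the promoters of present genes and 22.4% of those of genes at 0 counts. The abundant Calr (chr8:84846882-84847181, minus strand, 17 CG) and the absent liver gene Alb (chr5:90460620-90460919, plus strand, 3 CG) are shown as examples, with CG in capitals.
Calr: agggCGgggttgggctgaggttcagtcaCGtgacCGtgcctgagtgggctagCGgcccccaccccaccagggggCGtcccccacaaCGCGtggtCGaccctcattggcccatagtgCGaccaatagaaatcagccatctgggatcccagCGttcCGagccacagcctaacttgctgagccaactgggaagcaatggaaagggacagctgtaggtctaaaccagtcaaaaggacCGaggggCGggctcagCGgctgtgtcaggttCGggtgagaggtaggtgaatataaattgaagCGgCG
Alb: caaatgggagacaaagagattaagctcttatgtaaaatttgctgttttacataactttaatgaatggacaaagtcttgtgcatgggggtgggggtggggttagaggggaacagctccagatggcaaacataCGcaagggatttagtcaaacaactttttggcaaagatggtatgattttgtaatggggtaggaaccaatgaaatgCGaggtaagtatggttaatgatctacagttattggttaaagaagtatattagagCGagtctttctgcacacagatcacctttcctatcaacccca
The granulosa marker and identity genes had 29 promoters in the table, with a median of 7 CG, equal to that over all promoters. TATAAA was found in 27.6% of them, against 13.6% of all promoters and 6.66% of those of present genes. AAGGTCA, the site of Nr5a1 and Nr5a2, was found in 1 of them (3.45%). That was near its share of all promoters (4.72%) and of those of present genes (2.93%). Most of these genes were present, yet their promoters were nearer in CG count to all promoters than to those of present genes.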

How the data were processed

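RNA was extracted with TRIzol and made into libraries with a stranded mRNA kit, per the labels' protocols. The authors deposited counts, whole-number reads per gene symbol in 1 column per library, with no normalization. Per the submitters' processing notes the genome build was mm10 and the tools included featureCounts 1.6.4 and HISAT2 2.2.1, besides DESeq2 1.28.1, Cufflinks 2.2.1, SAMtools and fastp, with no role or order given. The strand setting and the rule for reads shared between genes were not given in the sources used here, so antisense, overlapping and near-identical genes are uncertain. Rows whose name had become a date (26 rows, 0.178% of counts) stayed in totals and are not named. Rows with predicted-gene names also stayed in totals. Both kinds were left out of the sets of highest, most variable and steadiest genes.

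Only the WT columns were read. CPM used library totals. TPM used merged exon lengths of GENCODE M21, matched by symbol for 96.8% of rows. TMM factors (0.997 to 1.00) and the biological coefficient of variation came from edgeR 4.0.16 in R 4.3.3, checked on simulated data; DESeq2 1.42.0 size factors, other thresholds, other lengths and leaving out each library were alternatives. Named genes were members of the lists, the 30 highest by CPM, the 20 highest by TPM, and the 20 with the largest (mean at least 10 CPM) or smallest (at least 100 CPM) CV, besides 4 named after their values were seen; some list members and 1 family in the plot of families are not reported here. The members and lists were chosen with earlier results of these data known.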

Additional observations from a re-analysis of the deposited data

Results flagged for a closer look

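A library was taken as far from the other 3 where its gap to the nearest of them filled nearly all of the range of the group, at the 95% level of Dixon's test for 4 samples; chance alone marks about 1 in 20 genes. Of 206 genes named in the text that were checked, 8 met this. Dhh, the desert hedgehog ligand, was lowest in library 3 at 8.87 CPM with a median of 12.9 CPM, and Pcsk5 was lowest there at 349.8 CPM with a median of 370.0 CPM. Prlr was highest in library 3 at 10.1 CPM with a median of 7.95 CPM. Library 2 was highest for Ldhb, the lactate dehydrogenase subunit of heart, at 218 CPM against a median of 202 CPM, and for Cnn1 at 5.82 CPM against 4.28 CPM. The other 3 rest on 1 or 2 counts in 1 library and 0 in the rest: Cyp17a1 at 0.0198 CPM and Lhcgr at 0.0396 CPM in library 2, and Insl3 at 0.0452 CPM in library 4.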

How the results depend on the processing

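Counts of detected, identity, stage and other-cell genes were recomputed under TMM scaling and at another threshold. Genes of other tissues were recounted at 0 counts, and family leads with another gene length or none. The share of the 10 most abundant genes was recomputed without mitochondrial genes. The median CV was recomputed with library totals, DESeq2 size factors and a lower threshold. Each of these was also recomputed with each library left out. Together with the immediate early order under TMM and DESeq2 scaling, 44 of 49 settings stayed within the limits set. The exceptions follow. At a threshold of 1 CPM, 32 of the 98 genes of other ovarian or blood cells were detected. Without mitochondrial genes the 10 most abundant genes took 6.50% of the counts. The median CV was 7.48% over genes from 1 CPM, and 5.34 to 6.48% with 1 library left out, lowest without library 3. Leaving out 1 library gave 12398 to 12432 detected rows, 23 to 24 identity genes, 53 to 58 tissue genes at the floor, 53 led families and 7.03 to 7.16% for the top 10. The leading gene of 54 of 65 families was the same without division by length, and of 59 with the longest transcript as length. The immediate early order held for 14 genes under TMM and under DESeq2 scaling, a count added after seeing the data. No paired analysis was possible because no groups were compared. The smallest counts limit the rare genes: values near the floor of 3 counts carry large counting error.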

Other observations

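Imprinted genes, which are read from the copy of 1 parent, ranged widely: 11 of 22 reached 10 CPM in every library, where 15.9% of all rows and 38.9% of protein-coding rows did. Peg10, a gene of retroviral origin, stood at 341, 308, 343 and 349 CPM, Plagl1, a zinc-finger regulator of growth, at 212, 192, 241 and 213 CPM, Nnat at 155 ± 6.55 CPM, and Igf2r, the receptor that clears insulin-like growth factor 2, at 120.5 ± 9.05 CPM. Its ligand Igf2 stood at 0.179, 0.218, 0.188 and 0.0904 CPM, close to the floor, and H19, the noncoding RNA beside it, at 1.57 ± 0.367 CPM. Growth restrictors Cdkn1c and Phlda2 stood at 2.96 ± 0.487 CPM and 0.0546 ± 0.0789 CPM.

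Of 14 listed long noncoding RNAs 8 reached 10 CPM in every library, where 15.9% of all rows did, with the most counts for Malat1 and Xist. Gas5, a host of small nucleolar RNAs, stood at 155 ± 14.1 CPM, and Neat1, the scaffold of paraspeckles, at 48.1, 44.7, 43.9 and 46.9 CPM. Miat had 0 counts in every library. Meg3 and Rian, noncoding RNAs of 1 imprinted cluster, stood at 26.7 ± 2.85 CPM and 62.4 ± 5.93 CPM, while the protein-coding Dlk1 and Rtl1 of that cluster stood at 3.55 ± 0.876 CPM and 0.0328 ± 0.0396 CPM.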
